A study of Homo sapiens with 12 samples.

Results

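De novo pyrimidine synthesis builds uridine nucleotides from glutamine, bicarbonate, aspartate and phosphoribosyl pyrophosphate (PRPP), and CTP synthase then turns UTP into CTP. The 5 genes of this route, CAD, DHODH, UMPS, CTPS1 and CTPS2, were taken by symbol from the deposited expression table. All 5 were among its 15090 genes, and all 5 were among the 12789 genes that passed the filter on low levels. RNA was sequenced from MIA PaCa-2, a long-established line of human pancreatic cancer cells, with wild type as its labelled genotype. Cells were kept for 48 h in glutamine-free RPMI 1640 medium to which L-glutamine had been added back at 2 or 40 mM, and received gemcitabine at 0 or 0.5 µM. The 4 groups of 3 libraries were 2 mM glutamine without drug, 2 mM with gemcitabine, 40 mM without drug and 40 mM with gemcitabine. L-glutamine was added in all of them, and all come from the same line.

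CAD is a large cytosolic protein that carries the opening activities of the pathway: a glutamine-dependent carbamoyl phosphate synthetase, aspartate transcarbamoylase and dihydroorotase. DHODH, in the inner mitochondrial membrane, oxidises dihydroorotate to orotate and passes the electrons to coenzyme Q. UMPS joins orotate to PRPP and decarboxylates the product to UMP. CTPS1 and CTPS2 are separate genes for the same reaction, in which the amide nitrogen of glutamine is moved onto UTP. Glutamine is therefore a direct substrate of CAD and of both CTP synthases. Gemcitabine is a deoxycytidine analogue, and its active triphosphate competes with dCTP, which cells make from the cytidine nucleotides that CTP synthase supplies.

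The members differed in direction with gemcitabine. CTPS1 and UMPS rose with the drug at both glutamine levels, DHODH fell at both, and neither CAD nor CTPS2 passed the test in any comparison. Calls in both directions were common among all tested genes, at 17.5% higher and 17.1% lower at 2 mM and 14.1% and 16.2% at 40 mM. The DHODH calls at both levels and the UMPS call at 40 mM were each lost on leaving out certain single libraries. The largest change among the 5 genes was that of CTPS1 with the drug at 2 mM glutamine, from 75.8 ± 2.30 to 108 ± 1.69 reads per 1000000 (RPM; SD, n = 3), or 42.6% higher. At 40 mM glutamine CTPS1 rose by 20.1% with the drug, and the test of the difference between these responses passed (limma adjusted p = 0.0189), a call lost with equal library totals (0.057) and on leaving out any of 4 single libraries. Glutamine at 40 mM had small effects: CTPS1 rose without the drug and DHODH fell with it. Neither call was stable, since that of CTPS1 was lost on leaving out either of 2 libraries and that of DHODH in 6 of 19 alternatives, equal library totals and voom weights included.

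Because members moved in opposite directions, the sequence just upstream of each gene is shown for comparison. The lines below give 170 bases that end at the base before the transcription start, 5′ to 3′ on the gene's own strand, as listed by RefSeq for GRCh38.p14; a start was listed for 5 of 5 members. RefSeq lists 2 starts for CTPS1 and 2 for CTPS2, and the one given first in its table is shown. The sources used here do not give the genome build behind the deposited table, and these positions do not come from it. Capitals mark matches on either strand to an E-box (CACGTG), a cyclic AMP response element (TGACGTCA), a CCAAT box (CCAAT), a GC box (GGGCGG) or an E2F site (TTTGGCGC, TTTCGCGC or TTTCCCGC).
CTPS1, chr1:40979526-40979695, plus strand: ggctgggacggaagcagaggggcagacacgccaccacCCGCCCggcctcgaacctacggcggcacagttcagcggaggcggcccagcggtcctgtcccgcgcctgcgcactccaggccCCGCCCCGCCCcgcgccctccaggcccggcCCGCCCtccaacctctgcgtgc
UMPS, chr3:124730282-124730451, plus strand: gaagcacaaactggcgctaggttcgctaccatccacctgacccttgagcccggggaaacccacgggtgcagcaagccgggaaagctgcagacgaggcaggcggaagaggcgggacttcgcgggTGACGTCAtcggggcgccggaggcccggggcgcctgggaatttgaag
DHODH, chr16:72008574-72008743, plus strand: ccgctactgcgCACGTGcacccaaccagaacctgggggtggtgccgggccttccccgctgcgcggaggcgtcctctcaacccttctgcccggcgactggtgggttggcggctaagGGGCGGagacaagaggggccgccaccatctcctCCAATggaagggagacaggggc
CTPS2, chrX:16712670-16712839, minus strand: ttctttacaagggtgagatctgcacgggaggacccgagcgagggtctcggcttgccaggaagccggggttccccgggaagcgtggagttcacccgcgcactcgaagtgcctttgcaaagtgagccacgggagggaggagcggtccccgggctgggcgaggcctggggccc
CAD, chr2:27217199-27217368, plus strand: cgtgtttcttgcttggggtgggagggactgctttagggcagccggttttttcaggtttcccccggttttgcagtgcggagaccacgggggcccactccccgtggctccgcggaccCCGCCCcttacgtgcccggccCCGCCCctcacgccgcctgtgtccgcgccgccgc

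The window of CTPS1 held 4 GC boxes, 2 of which overlap, and that of UMPS held none. The UMPS window instead held a cyclic AMP response element that ends 40 bases before the start. DHODH had 1 E-box, 1 GC box and 1 CCAAT box, CAD had 2 GC boxes, and the window shown for CTPS2 had no match to any of these letters. At the second start, the CTPS2 window had 1 GC box and the CTPS1 window no match. No window of the 5 genes held an E2F match. Among 35116 RefSeq windows of the same length, 38.3% held a GC box, 25.4% a CCAAT box, 4.96% an E-box, 1.66% an E2F site and 1.48% a cyclic AMP response element. The windows shown for CTPS1 and UMPS had none of the searched motifs in common. Any link between these letters and the changes in level was not tested. A match is a description of letters, and no binding was measured. GENCODE 29 places the outermost start of CTPS1, CTPS2, DHODH and UMPS 361, 267, 156 and 86 bases further upstream than the RefSeq start used.

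The libraries held 21723094 to 32811746 reads in listed genes, and the 5 members were counted with 734 to 10540 reads per library. DHODH had the fewest, at 734 to 1178 reads, so relative counting error was largest for it. The epithelial markers KRT8, KRT18, KRT19 and CLDN4 were present at means of 125 to 1765 RPM, with KRT7, EPCAM and CDH1 not listed in the table, and the mesenchymal markers VIM and ZEB1 averaged 3236 and 42.5 RPM, with CDH2 not listed. All 4 acinar, all 3 islet and 2 of 3 endothelial markers looked up were likewise not listed (CDH5 averaged 0.397 RPM), as were PTPRC and CD3E of immune cells; CD68 averaged 31.8 RPM and CD14 0.378 RPM. Of 4 fibroblast markers, COL1A2 averaged 732 RPM, COL3A1 13.2 and COL1A1 0.991, and DCN was not listed. In the bulk RNA measured here, fewer cells of a kind and less RNA per cell cannot be told apart. The scaling factors in the deposited values were 1.026 to 1.029 in the 3 libraries at 40 mM with gemcitabine and 0.979 to 1.002 in the other 9.

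**Figure D1:**
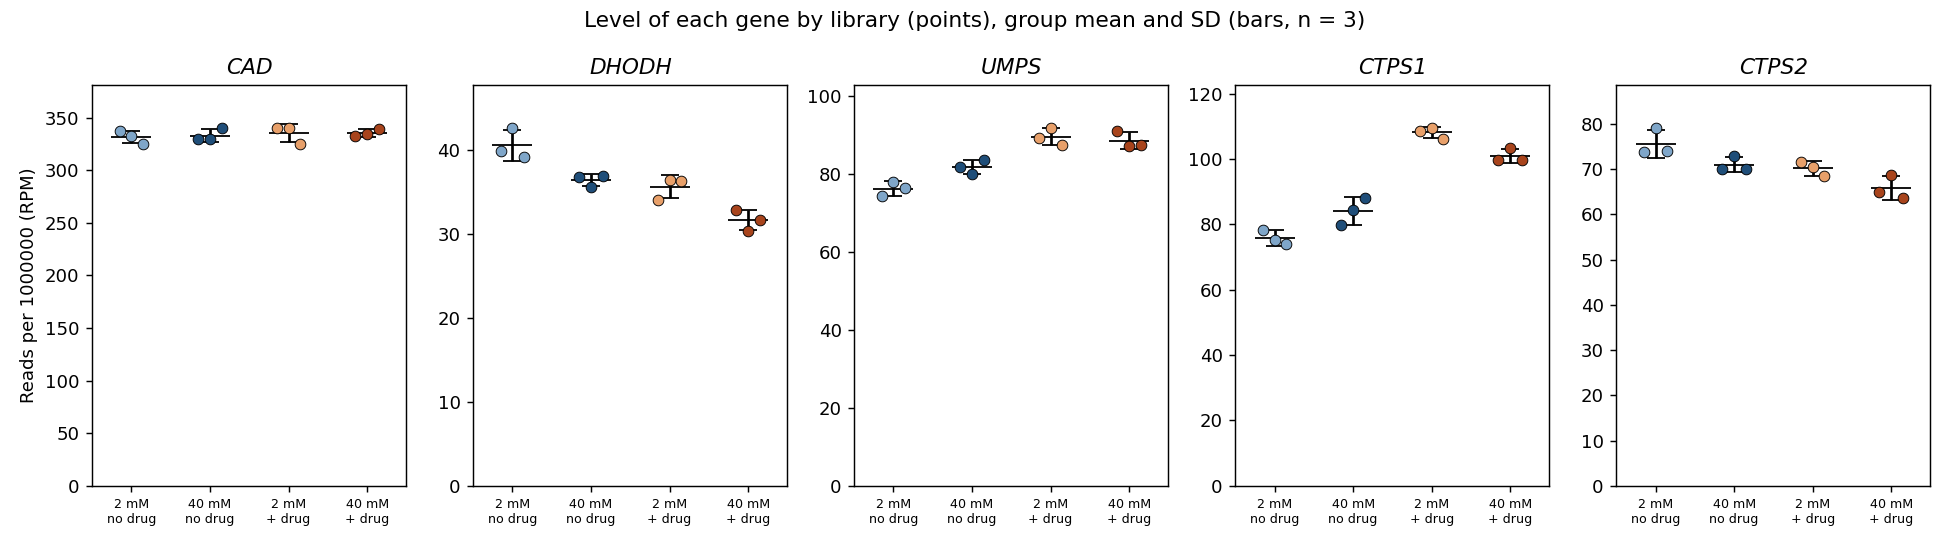
Level in reads per 1000000 (vertical axis, from 0, separate scale per gene) of each member in the 12 libraries; points are libraries, bars the group mean and SD of 3. CTPS1 rises from 73.9 to 78.4 in untreated cells at 2 mM glutamine to 106 to 110 with gemcitabine, DHODH is lowest at 40 mM with the drug, and all 12 CAD libraries lie between 325 and 340.

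CAD was the most abundant of the 5 transcripts and the steadiest. Its 3 libraries gave 337, 332 and 325 RPM at 2 mM glutamine without drug, and 329, 330 and 340 at 40 mM without drug. With gemcitabine they gave 340, 340 and 325 at 2 mM, and 332, 334 and 339 at 40 mM. The 4 groups overlapped throughout. The log2 fold change, here and below on the log2(RPM + 1) scale, was 0.01 ± 0.029 (SE; 95% interval −0.05 to 0.07) for 40 against 2 mM glutamine without drug and 0.00 ± 0.029 (−0.06 to 0.06) with it. For the drug it was 0.02 ± 0.029 (−0.04 to 0.08) at 2 mM and 0.01 ± 0.029 (−0.05 to 0.07) at 40 mM. The limma test (Benjamini-Hochberg adjusted p of 0.723 to 0.988 in these 4 comparisons) did not pass. Scaling moved these values: quantile normalization gave 0.064 for glutamine with drug and 0.059 for the drug at 40 mM (limma adjusted p = 0.125 and 0.127), and equal library totals gave 0.055 and 0.052 (0.175 and 0.189).

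DHODH, the mitochondrial step, was lower with the drug. It stood at 39.9, 42.6 and 39.1 RPM at 2 mM glutamine without drug and at 34.0, 36.5 and 36.3 with gemcitabine. These groups did not overlap, and the log2 fold change was −0.18 ± 0.057 (SE, n = 3 per group; limma adjusted p = 0.0126). At 40 mM it stood at 36.8, 35.6 and 36.9 RPM without drug and at 32.9, 30.4 and 31.7 with gemcitabine, a fall of 0.20 ± 0.057 on the log2 scale (limma adjusted p = 0.00814), again without overlap. For 40 against 2 mM glutamine the change was −0.15 ± 0.057 without the drug, which did not pass (limma adjusted p = 0.0663; 95% interval −0.27 to −0.03), and −0.16 ± 0.057 with it, which did (limma adjusted p = 0.0365), with no overlap in either case. The levels thus ran from 40.6 ± 1.84 RPM at 2 mM without drug through 36.4 ± 0.741 at 40 mM without drug and 35.6 ± 1.36 at 2 mM with drug, whose libraries overlapped, to 31.7 ± 1.25 RPM (SD, n = 3) at 40 mM with drug. The drug response of DHODH was nearly the same size at both glutamine levels, with a difference of −0.01 (95% interval −0.18 to 0.15). The 2 mM drug call was lost on leaving out untreated replicate 2 or treated replicate 1 of that glutamine level (limma adjusted p = 0.0763 and 0.0745), and the 40 mM call on leaving out treated replicate 2 (limma adjusted p = 0.0506). The glutamine call in treated cells was lost on leaving out replicate 2 or 3 of either treated group (limma adjusted p = 0.0703 to 0.144), with voom weights (0.0518) and when library totals were made equal (−0.11, limma adjusted p = 0.157).

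UMPS, which makes UMP, rose with gemcitabine. Its libraries gave 74.5, 78.1 and 76.3 RPM at 2 mM glutamine without drug and 89.3, 91.9 and 87.5 with gemcitabine. Each treated library lay above each untreated one, and the log2 fold change was 0.23 ± 0.040 (SE, n = 3 per group; limma adjusted p = 3.39e-05). At 40 mM the values were 81.9, 80.1 and 83.5 RPM without drug and 91.1, 87.3 and 87.6 with gemcitabine, a rise of 0.11 ± 0.040 without overlap (limma adjusted p = 0.0309). The 40 mM call was lost on leaving out untreated replicate 1 or 2 or treated replicate 1 of that level (limma adjusted p = 0.061, 0.1 and 0.127). The difference between the drug responses (40 mM less 2 mM glutamine) was −0.11 ± 0.057 (95% interval −0.23 to 0.00), which did not pass (limma adjusted p = 0.337). Glutamine alone gave 0.10 ± 0.040 (limma adjusted p = 0.0826), with groups that did not overlap, and −0.01 ± 0.040 in drug-treated cells, where the groups overlapped. In order of level, 2 mM without drug (76.3 ± 1.82 RPM) was lowest, 40 mM without drug (81.9 ± 1.72) came next, and the drug-treated groups at 40 mM (88.6 ± 2.11) and 2 mM (89.6 ± 2.20; SD, n = 3) did not differ beyond their spread.

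CTPS1, the CTP synthase known to be needed for lymphocyte proliferation, gave the widest range of the 5 genes. Its libraries stood at 78.4, 75.2 and 73.9 RPM at 2 mM glutamine without drug and at 109, 110 and 106 with gemcitabine. The groups were far apart, with a log2 fold change of 0.51 ± 0.041 (SE, n = 3 per group; limma adjusted p = 9.24e-12), and 97.6% of tested genes had a lower log2 change. At 40 mM the libraries stood at 79.7, 84.3 and 88.2 RPM without drug and at 99.7, 104 and 99.7 with gemcitabine, a rise of 0.26 ± 0.041 without overlap (limma adjusted p = 6.35e-06). Both drug responses kept their call in every alternative tried. Glutamine without drug raised CTPS1 by 0.15 ± 0.041 (limma adjusted p = 0.0123), from 75.8 ± 2.30 to 84.1 ± 4.25 RPM (SD, n = 3) with no overlap, but leaving out untreated replicate 3 of either the 2 mM or the 40 mM group lost this call (limma adjusted p = 0.0581 and 0.101). In drug-treated cells the change with glutamine was −0.10 ± 0.041, from 108 ± 1.69 to 101 ± 2.18 RPM, which did not pass (limma adjusted p = 0.0894; 95% interval −0.18 to −0.01) although the groups did not overlap. Equal library totals gave −0.044 for this change (limma adjusted p = 0.477).

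CTPS1 was also the 1 member for which the difference in drug response between glutamine levels passed the test. The 40 mM response less the 2 mM response was −0.24 ± 0.059 (SE; 95% interval −0.36 to −0.12; limma adjusted p = 0.0189), where 1.47% of tested genes were called lower and 0.727% higher in this comparison. For the other 4 members this difference did not pass (limma adjusted p = 0.337 to 0.988). The CTPS1 call was lost on leaving out treated replicate 1 or 2 of the 2 mM level, or untreated replicate 3 or treated replicate 1 of the 40 mM level (limma adjusted p = 0.0508 to 0.0839), with values of −0.24 to −0.21. It was also lost when library totals were made equal (−0.21, limma adjusted p = 0.057).

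CTPS2, the X-linked CTP synthase gene, leaned downward in each pairwise comparison without passing the test in any. Its libraries gave 73.7, 79.1 and 73.9 RPM at 2 mM glutamine without drug and 71.5, 70.5 and 68.4 with gemcitabine. At 40 mM they gave 69.9, 72.8 and 70.1 RPM without drug and 64.9, 68.7 and 63.6 with gemcitabine. The groups did not overlap for the drug at either glutamine level or for glutamine without drug, and overlapped for glutamine with drug. The log2 fold changes were −0.11 ± 0.045 for the drug at 2 mM (limma adjusted p = 0.0645; 95% interval −0.20 to −0.01) and −0.11 ± 0.045 at 40 mM (limma adjusted p = 0.0617; −0.20 to −0.02). For glutamine they were −0.09 ± 0.045 without the drug (limma adjusted p = 0.173; −0.18 to 0.00) and −0.09 ± 0.045 with it (limma adjusted p = 0.142; −0.18 to 0.00). These comparisons share groups of libraries, so their common direction is not 4 separate observations. Equal library totals gave −0.039 for glutamine with drug and −0.068 for the drug at 40 mM (limma adjusted p = 0.566 and 0.258), and leaving out untreated replicate 2 of the 2 mM level gave −0.056 for glutamine without drug (limma adjusted p = 0.495).

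**Figure D2:**
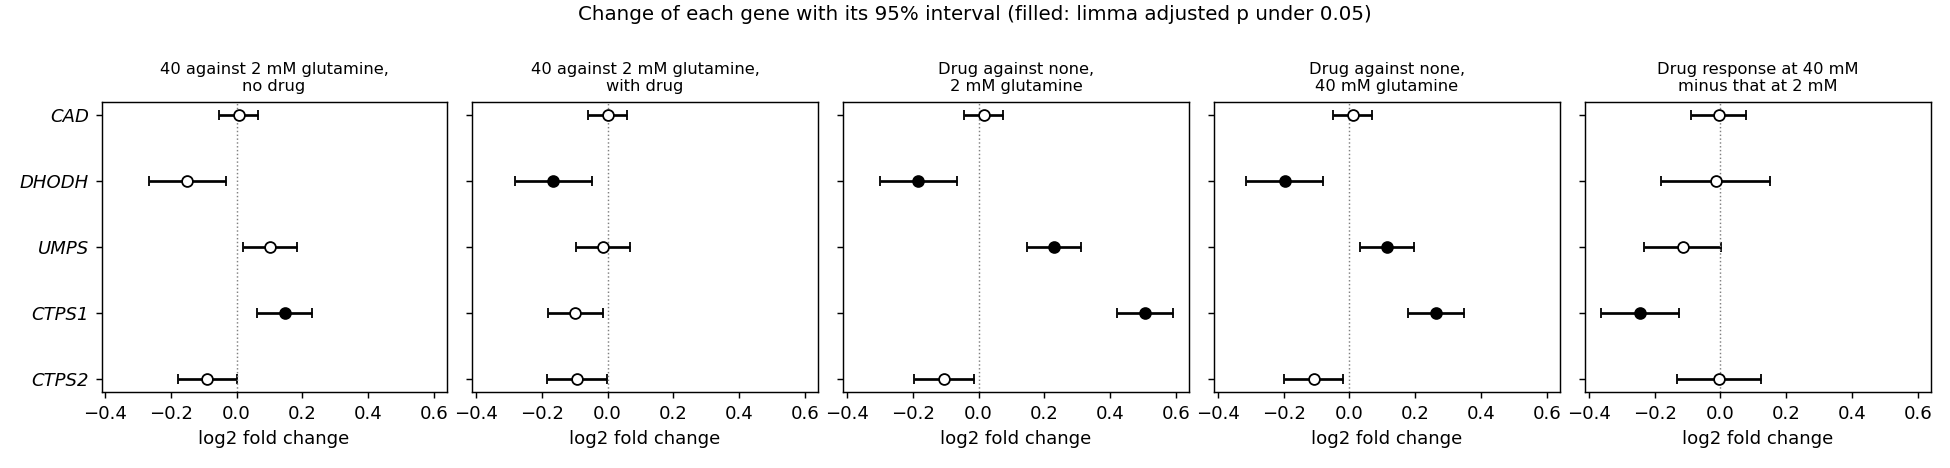
The log2 fold change on the log2(RPM + 1) scale (horizontal axis) of each member in the 4 pairwise comparisons and in the difference between drug responses (40 mM less 2 mM glutamine); bars are 95% intervals and filled points passed the limma test at an adjusted p of 0.05. CTPS1 lies at 0.51 and 0.26 for the drug at 2 and 40 mM, DHODH at −0.18 and −0.20, and CAD near 0 in all panels.

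By count, the drug at 2 mM glutamine had 2 of 5 members called higher (CTPS1 and UMPS) and 1 lower (DHODH), where 17.5% of all tested genes were called higher and 17.1% lower. At 40 mM the counts were again 2 higher and 1 lower, beside 14.1% and 16.2% of all tested genes. Glutamine without drug had 1 member higher (CTPS1) and 0 lower, beside 8.41% and 9.12%, and glutamine with drug had 0 higher and 1 lower (DHODH), beside 8.62% and 13%. Groups did not overlap for 4 of 5 members in each of glutamine without drug and the drug at 2 and at 40 mM, where 31.1%, 46.1% and 40.6% of tested genes did not overlap, and for 2 of 5 (DHODH and CTPS1) in glutamine with drug, where 37.4% did not. With 5 genes these shares describe the members and set no difference from other genes. Glutamine comparisons and drug comparisons share libraries, so their values are given side by side only.

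The balance of the CTP synthase genes was followed as a value within each library, which no scaling between libraries can move. CTPS1 made up 51.5%, 48.8% and 50% of the reads of both genes at 2 mM glutamine without drug, and 53.3%, 53.6% and 55.7% at 40 mM without drug. With gemcitabine its share was 60.3%, 60.9% and 60.8% at 2 mM, and 60.6%, 60.1% and 61% at 40 mM. The share was higher in each treated library than in each untreated one, and the drug-treated groups overlapped. These are shares of reads on transcripts of unequal length, so an even share is not an equal level. Per kilobase of the longest principal transcript (3201 bases for CTPS1, 4319 for CTPS2), CTPS1 stood above CTPS2 in untreated cells at 2 mM too. The values were 23.7 ± 0.718 against 17.5 ± 0.712 RPM (SD, n = 3). This order depends on the length used. Over all annotated exons CTPS1 is the longer, at 5795 against 4852 bases, and by that length the order is reversed. The exact (Clopper-Pearson) 95% interval of a single library was widest for replicate 2 at 2 mM without drug, at 47.1% to 50.4%, and covers counting error only.

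On the log2 scale, CTPS1 minus CTPS2 averaged 0.01 ± 0.080 at 2 mM without drug and 0.62 ± 0.018 (SD, n = 3) with it. The difference of 0.61 had an exact two-sided permutation p = 0.1, the smallest that 3 against 3 libraries can give (0.133 adjusted over 4 comparisons). At 40 mM the average went from 0.24 ± 0.076 to 0.61 ± 0.028, a difference of 0.37, also with an exact permutation p = 0.1. Glutamine without drug moved the balance by 0.23 (exact permutation p = 0.1), and in drug-treated cells by −0.01 (exact permutation p = 0.7). The design cannot reach a lower p with this test. Summed over both genes, CTP synthase transcripts stood at 151 ± 3.33 RPM at 2 mM without drug, 155 ± 4.71 at 40 mM without drug, 178 ± 3.11 at 2 mM with drug and 167 ± 4.79 (SD, n = 3) at 40 mM with drug.

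**Figure D3:**
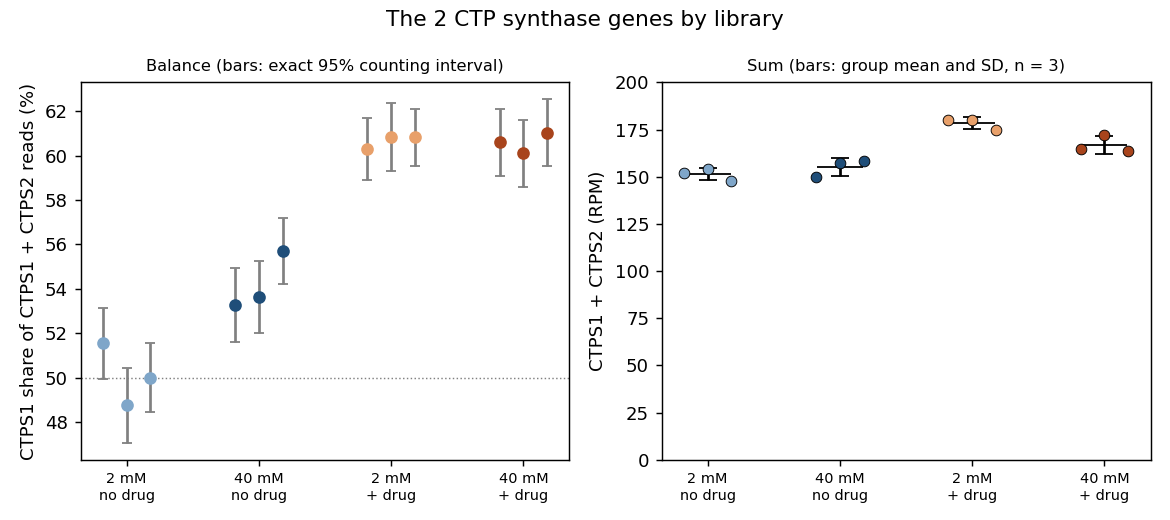
Left, the CTPS1 share of all CTPS1 and CTPS2 reads in percent for each library, with exact 95% counting intervals; this axis does not start at 0. Right, the sum of both genes in reads per 1000000, with points for libraries and bars for the group mean and SD of 3. The 6 drug-treated libraries have CTPS1 shares of 60.1% to 61%, against 48.8% to 55.7% in the 6 untreated ones.

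Levels of different genes can be compared only per transcript length, for which the longest principal transcript of GENCODE 29 was used. Per kilobase, untreated cells at 2 mM had 45.6 ± 0.814 RPM of CAD, 23.7 ± 0.718 of CTPS1, 17.5 ± 0.712 of CTPS2, 16.7 ± 0.759 of DHODH and 11.3 ± 0.271 (SD, n = 3) of UMPS. By these lengths CAD led and UMPS was last, with CTPS2 and DHODH within each other's spread. With gemcitabine at 2 mM, CTPS1 stood at 33.8 ± 0.527 and CTPS2 at 16.2 ± 0.363 RPM per kilobase. These values depend on the transcript chosen: that of UMPS has 6738 bases and that of DHODH 2426. Over all annotated exons UMPS has 6783 bases and DHODH 4830, and the order of the genes below CAD changes with the length used. No exon of another gene in the GENCODE 29 basic set overlaps an exon of any of the 5 members on either strand.

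Profiles across the libraries were compared by the root mean square difference of log2 values over all 12, after centring each gene on its own mean. The closest members were DHODH and CTPS2, at 0.08, and the farthest DHODH and CTPS1, at 0.31. Among 6390 genes at or above the median level, the 3 profiles most like CTPS1 were MCM3, a subunit of the replicative helicase (0.044), RFC2, of the clamp loader (0.046), and TICRR, which helps to start replication (0.054), beside a spread of CTPS1 itself of 0.21 around its mean. For UMPS they were KIF22, a kinesin (0.02), PGD of the pentose phosphate pathway (0.028) and SMPD4 (0.032), with a spread of UMPS of 0.097. For DHODH they were PLK2 (0.046), RPS15 and MBNL2 (both 0.047), and for CTPS2 CWC22 (0.028), MSN (0.03) and PSAT1 of serine synthesis (0.031). CAD varied so little (0.023) that its nearest profiles, HSPA4, AREL1 and SKI, at 0.023 to 0.026, are other steady genes.

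Called counts in the gene lists from here on stand beside the shares of all tested genes called. With the drug these shares were 17.5% higher and 17.1% lower at 2 mM, and 14.1% and 16.2% at 40 mM. For glutamine they were 8.41% and 9.12% without drug, and 8.62% and 13% with it. No list was tested against these shares. The replicative helicase and clamp genes (MCM2 to MCM7 and PCNA) include MCM3, named above for its likeness to CTPS1, so nothing is read from a match between this list and CTPS1. All 7 rose with the drug at 2 mM (median 0.57, beside −0.0011 over all tested genes) and all 7 at 40 mM (median 0.33, beside −0.0054). Of the 7, 6 rose with glutamine alone (median 0.15, beside 0.0016) and 6 fell with glutamine in drug-treated cells (median −0.13, beside −0.0015). The drug response of all 7 was smaller at 40 mM than at 2 mM (median difference −0.26, beside −0.0069). PCNA, the sliding clamp, had 0.67 ± 0.036 and 0.33 ± 0.036 (SE) for the drug at 2 and 40 mM, and MCM2 had 0.52 ± 0.032 and 0.31 ± 0.032.

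Other enzymes that take the amide nitrogen of glutamine did not move as a body. Of 7 tested, 0 rose and 1 fell with glutamine alone (median −0.10), and 1 rose and 3 fell in drug-treated cells (median −0.05). GFPT2 of hexosamine synthesis fell by 0.47 ± 0.068 and 0.43 ± 0.068 (SE), while its relative GFPT1 had −0.06 ± 0.041 without drug, which did not pass, and rose by 0.16 ± 0.041 with it. With the drug GFPT1 fell by 0.11 ± 0.041 at 2 mM and rose by 0.11 ± 0.041 at 40 mM. The difference between these responses passed (0.22 ± 0.059, limma adjusted p = 0.0343). The purine enzymes PFAS and GMPS fell by 0.14 ± 0.046 and 0.12 ± 0.029 in drug-treated cells and rose by 0.12 ± 0.046 and 0.13 ± 0.029 with the drug at 2 mM. PPAT rose with the drug at 40 mM, by 0.12 ± 0.046. ASNS, at a mean of 3.66 RPM in untreated cells at 2 mM, and NADSYN1 fell with the drug at 2 mM, by 0.68 ± 0.147 and 0.17 ± 0.057. In total 3 of 7 rose and 3 fell in treated cells at 2 mM (median 0.08), and 3 rose and 0 fell at 40 mM (median 0.10).

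Among 8 genes that supply aspartate and PRPP, 4 rose and 0 fell in treated cells at 2 mM (median 0.07), and 2 rose and 1 fell at 40 mM (median 0.00). SLC25A13, a mitochondrial aspartate-glutamate carrier, rose by 0.25 ± 0.050 (SE) with the drug at 2 mM and by 0.23 ± 0.050 with glutamine alone. It did not pass with the drug at 40 mM (0.09 ± 0.050) or with glutamine in drug-treated cells (0.07 ± 0.050). PRPS1, a PRPP synthetase, rose by 0.11 ± 0.039 and 0.12 ± 0.039 with the drug at 2 and 40 mM. PRPS2 fell by 0.17 ± 0.031 and 0.20 ± 0.031 with glutamine without and with drug. GOT1, the cytosolic aspartate aminotransferase, rose with glutamine in drug-treated cells by 0.25 ± 0.045, and mitochondrial GOT2 rose with the drug at 2 mM by 0.08 ± 0.029. Over the list, 1 rose and 1 fell with glutamine alone (median 0.03), and 1 rose and 2 fell in drug-treated cells (median −0.08).

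Coenzyme Q, which accepts the electrons from DHODH, is made by enzymes of which 11 were tested. With the drug 2 rose and 2 fell at 2 mM (median −0.09), and 0 rose and 3 fell at 40 mM (median −0.07). With glutamine 1 rose and 1 fell without drug (median 0.00), and 0 rose and 1 fell with it (median −0.01). COQ2 and COQ9 did not pass in any comparison, at −0.11 to 0.03. DHODH itself, at −0.18 and −0.20 for the drug, was below both medians of this list.

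Salvage, the alternative source of UMP and CTP, was followed in 12 tested genes of 15 listed. With the drug 5 rose and 1 fell at 2 mM (median 0.05), and 3 rose and 3 fell at 40 mM (median 0.04). The uridine-cytidine kinases UCK1 and UCK2 rose by 0.31 ± 0.055 and 0.27 ± 0.040 (SE) at 2 mM. At 40 mM UCK1 rose by 0.23 ± 0.055, and UCK2, at 0.07 ± 0.040, did not pass. UPP1, uridine phosphorylase, rose by 0.47 ± 0.110 and 0.57 ± 0.110 with the drug at 2 and 40 mM, at 7.27 RPM in untreated cells at 2 mM. SLC29A1, a carrier of nucleosides and of gemcitabine, rose with the drug by 0.40 ± 0.041 at 2 mM and 0.14 ± 0.041 at 40 mM, and the difference between these responses passed (−0.26 ± 0.058, limma adjusted p = 0.012). CMPK1, which phosphorylates UMP and CMP, stayed within −0.01 to 0.04 in the 4 pairwise comparisons and did not pass. With glutamine alone 1 rose (UCK2, by 0.14 ± 0.040) and 0 fell (median 0.03), and in drug-treated cells 0 rose and 1 fell (SLC29A1, by 0.32 ± 0.041; median −0.05).

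Downstream, 12 genes of the pyrimidine deoxynucleotide branch were tested, and most rose with the drug. At 2 mM 8 rose and 1 fell (median 0.27), beside 17.5% and 17.1% of all tested genes. At 40 mM 7 rose and 1 fell (median 0.20), beside 14.1% and 16.2%. These counts include SAMHD1, which rose at both levels, and DCTPP1, which rose at 2 mM, and both break down deoxynucleotides. TYMS, thymidylate synthase, rose by 0.43 ± 0.086 (SE) at 2 mM and had 0.15 ± 0.086 at 40 mM, which did not pass. DUT, which removes dUTP, rose by 0.41 ± 0.044 and 0.25 ± 0.044, and DTYMK, thymidylate kinase, by 0.27 ± 0.053 and 0.18 ± 0.053. DCTD, dCMP deaminase, had −0.04 ± 0.042 and −0.10 ± 0.042 and did not pass. With glutamine 3 rose and 1 fell without the drug (median 0.05), and 1 rose and 3 fell with it (median −0.04).

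Of 9 tested enzymes that use UTP or CTP, 1 rose and 4 fell in treated cells at 2 mM (median −0.02), and 2 rose and 3 fell at 40 mM (median −0.09). UAP1, which makes UDP-N-acetylglucosamine, rose by 0.14 ± 0.030 and 0.17 ± 0.030 (SE) with the drug and fell by 0.20 ± 0.030 and 0.18 ± 0.030 with glutamine. PCYT1A, which uses CTP to make phosphatidylcholine, rose by 0.14 ± 0.033 with glutamine alone and fell by 0.13 ± 0.033 with the drug at 40 mM. PCYT2, which serves phosphatidylethanolamine, fell by 0.15 ± 0.046 with the drug at 2 mM, CMAS of sialic acid activation rose by 0.14 ± 0.044 at 40 mM, and UGDH did not pass in any comparison (−0.06 to 0.12). With glutamine 2 rose and 1 fell without drug (median −0.03), and 0 rose and 1 fell with it (median 0.01).

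Among 8 tested genes of pyrimidine breakdown and nucleotidases, 3 rose and 2 fell in treated cells at 2 mM (median −0.03), and 1 rose and 1 fell at 40 mM (median 0.05). DPYD, the entry enzyme of uracil breakdown, fell by 0.31 ± 0.039 and 0.49 ± 0.039 (SE) with the drug at 2 and 40 mM, and by 0.19 ± 0.039 with glutamine in drug-treated cells. NT5C3A, a pyrimidine nucleotidase, rose by 0.33 ± 0.071 at 2 mM and had 0.16 ± 0.071 at 40 mM, which did not pass. TYMP averaged 1.43 RPM in untreated cells at 2 mM and did not pass in any comparison. With glutamine 0 rose and 2 fell without drug (median 0.01), and 1 rose and 1 fell with it (median −0.08).

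CAD is known to be activated by growth signals through MTOR, RPS6KB1 and MAPK kinases, and its gene to be driven by MYC. The list of 11 tested genes also holds MXD4 and MNT, which act against MYC, so its counts pool opposed regulators. In treated cells 0 rose and 3 fell at 2 mM (median −0.04), and 0 rose and 6 fell at 40 mM (median −0.16). MXD4 was among those that fell at both levels. MYC had −0.07 ± 0.031 (SE) with the drug at 2 mM, which did not pass, and fell by 0.25 ± 0.031 at 40 mM. CAD had 0.02 and 0.01 in the same comparisons. MYC also fell with glutamine, both without and with drug, and the difference between its drug responses (40 mM less 2 mM) was called lower. MXD4, which pairs with MAX against MYC, fell by 0.55 ± 0.051 and 0.65 ± 0.051 with the drug and rose by 0.25 ± 0.051 and 0.15 ± 0.051 with glutamine. MTOR rose by 0.11 ± 0.038 with glutamine alone, and RPS6KB1 fell by 0.15 ± 0.046 with the drug at 40 mM. With glutamine 2 rose and 1 fell without drug (median 0.11), and 1 rose and 2 fell with it (median 0.00).

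Genes of nucleolar ribosome assembly, often raised together with nucleotide synthesis in growing cells, gave another set beside which the members can be read. Of 12, 9 rose and 1 fell in treated cells at 2 mM (median 0.19), and 4 rose and 1 fell at 40 mM (median 0.03). With glutamine 0 rose and 6 fell without drug (median −0.10), and 0 rose and 11 fell with it (median −0.21). NOP56 rose by 0.35 ± 0.031 and 0.17 ± 0.031 (SE) with the drug at 2 and 40 mM, and NPM1 fell by 0.09 ± 0.026 and 0.11 ± 0.026. Among the members, DHODH was the 1 gene called lower with glutamine in drug-treated cells.

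**Figure D4:**
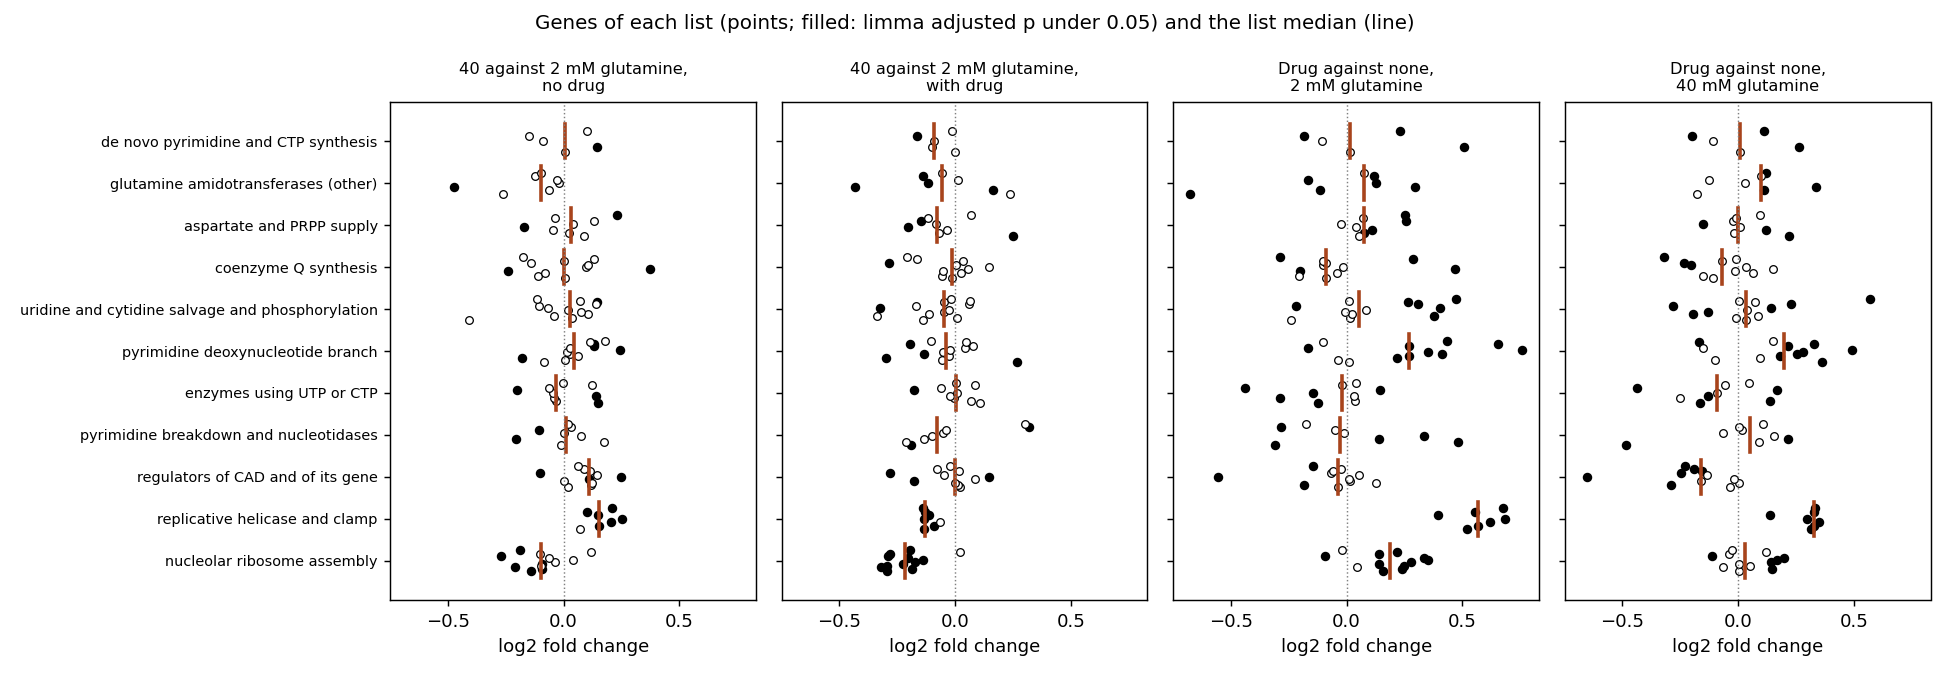
The log2 fold change (horizontal axis) of each tested gene in the 11 lists, 1 panel per pairwise comparison; filled points passed the limma test at an adjusted p of 0.05 and the line is the list median. The replicative helicase and clamp genes lie together at a median of 0.57 for the drug at 2 mM glutamine, while the 5 pathway members spread from −0.18 to 0.51.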

How the data were processed

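RNA was sequenced from 12 libraries of MIA PaCa-2 cells in 4 groups of 3, which the series' design calls biological triplicates; p-values measure the spread between these samples. The table deposited by the authors holds log2 values, with columns named as in the sample titles. The values themselves show the unit: each equals log2(RPM + 1), and 100% of the RPM values in every library are whole multiples of 1 read within 0.05 read, so reads could be recovered. The sources used here do not give the aligner, counting program, strand setting, genome build or scaling method.

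Testing was limited to genes that reached 1 RPM in 3 or more libraries. A limma model (limma 3.58.1 under R 4.3.3) with 1 mean per group was fitted to the deposited log2 values, using moderated variances that follow the expression level. The two-sided p-values were adjusted by the Benjamini-Hochberg method across the 12789 genes, with a threshold of 0.05. "Rose", "fell" and "called" refer to this threshold. Named genes were the 5 members, a set fixed by name from each list, and the 3 nearest profiles per member. The members and lists were chosen with earlier results of these data known. Pairs of replicates within a group differed by more than sampling noise (chi-square over degrees of freedom of 2.42 to 5.88), so each library counts once. Alternatives were no filter, a pseudocount of 0.25, equal library totals, quantile normalization, voom weights on recovered reads, a replicate block, fits on the 6 libraries compared and leaving out each library. NME1, a list gene, has a close paralog in NME2, which was below the level for testing, so its reads are uncertain.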

Additional observations from a re-analysis of the deposited data

Results flagged for a closer look

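The CTPS1 drug response at 40 mM glutamine less its 2 mM response was −0.24 on the log2 scale, and the test of this difference passed (limma adjusted p = 0.0189, 3 libraries per group). This call was lost in 5 of 18 alternatives: equal library totals (limma adjusted p = 0.057), and leaving out 1 of 4 single libraries (0.0508 to 0.0839). CTPS1 had 0.51 and 0.26 for the drug at 2 and 40 mM, and each of the 6 treated libraries lay above the untreated libraries at its glutamine level. The untreated level was higher at 40 mM (84.1 against 75.8 RPM), a call lost on leaving out either of 2 libraries (limma adjusted p = 0.0581 and 0.101). The treated level was lower (101 against 108 RPM), a change that did not pass (limma adjusted p = 0.0894).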

How the results depend on the processing

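Over 25 member results and up to 19 alternatives each, 418 of 470 values kept their direction and side of the threshold; 19 lost the call, 4 gained one and 29 changed sign, all of these last for values that had not passed. Making library totals equal gave UMPS 0.12 (adjusted p = 0.0325) for glutamine alone and 0.039 in drug-treated cells, DHODH −0.11, CTPS1 −0.044 and CTPS2 −0.039 there, and for the interaction CTPS1 −0.21 (adjusted p = 0.057, call lost), CAD 0.028, DHODH 0.018 and CTPS2 0.0296. Quantile normalization gave UMPS 0.013 for glutamine with drug, CTPS2 −0.11 (adjusted p = 0.0438) for the drug at 2 mM, and 0.027 and 0.015 for the interactions of CAD and CTPS2. Voom weights gave DHODH −0.16 (adjusted p = 0.0518) for glutamine with drug, and 0.0032 and 0.0034 for the interactions of CAD and CTPS2. A fit on the 6 libraries compared gave CTPS1 −0.10 (adjusted p = 0.0466) for glutamine with drug.

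Leaving out each library in turn gave these ranges. For glutamine alone, CAD ran from −0.0085 to 0.018 and CTPS1 from 0.11 to 0.18; with drug, CAD from −0.021 to 0.012, DHODH from −0.20 to −0.14 and UMPS from −0.034 to 0.0038. For the drug at 2 mM, DHODH ran from −0.21 to −0.15. At 40 mM, DHODH ran from −0.22 to −0.17, UMPS from 0.094 to 0.13 and CTPS2 from −0.14 (without replicate 2 at 40 mM with drug, adjusted p = 0.0342) to −0.087. Interactions ran from −0.027 to 0.0094 for CAD, −0.0503 to 0.014 for DHODH, −0.28 to −0.21 for CTPS1 and −0.037 to 0.019 for CTPS2, and genes called for the interaction from 155 to 366, against 281 over all libraries. The causes of these shifts, which went in both directions, were not tested.

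Deviations of same-numbered libraries had correlations of −0.077 to 0.048 over 18 pairs, beside −0.080 to 0.092 over 36 pairs of unlike number. Whether same-numbered libraries were handled together cannot be told from these values. The replicate block changed no member's call and gave 306 interaction calls. Equal totals raised the share of calls that were higher from 48% to 61.2% for glutamine alone, 39.9% to 68.2% with drug, 46.6% to 62.9% for the drug at 40 mM and 33.1% to 58.9% for the interaction, and quantile normalization gave 50.1% with drug and 54.7% for the interaction. The members had at least 734 reads per library, with DHODH the lowest, and the part of counting error in their spread was not tested.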
